A study of Mus musculus with 36 samples.

Results

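The 10 genes described here encode hormones and neuropeptides of the pituitary and hypothalamus: Gh, Prl, Pomc, Oxt, Avp, Hcrt, Pmch, Trh, Crh and Agrp. They were chosen by symbol from a table of 22154 mouse genes, and 9 of the 10 had a mean of at least 0.5 FPKM (fragments per kilobase of transcript, scaled to library size) and entered the tests. The study profiled brain RNA of APP/PS1 mice, which express the APP695swe and PS1-dE9 mutations, and of wild type C57BL/6 mice. Long RNA libraries came from APP/PS1 mice at 9 months, wild type mice at 9 months, APP/PS1 mice at 6 months and wild type mice at 6 months, with 3 libraries in each of the 4 groups. All samples carry the same strain label, C57BL/6. The labels name no promoter for the transgenes and do not say whether libraries came from single or pooled animals, nor whether they came from separate animals. P-values therefore measure the spread between these libraries, which may be technical.

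Hypothalamic neurons release small peptides that either act within the brain or travel to the pituitary, where they set the output of hormone-producing cells. The anterior pituitary makes growth hormone and prolactin in related cell lineages, and its corticotrophs and the intermediate lobe make pro-opiomelanocortin. Each peptide gene is active in small, spatially restricted groups of cells. In bulk tissue, fewer cells of a type and less RNA per cell cannot be told apart.

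The libraries bore out their genotype labels. App, the amyloid precursor gene, lay between 970 and 1029 FPKM in APP/PS1 libraries, against 433 to 453 FPKM in wild type libraries. Prnp, the prion protein gene, lay between 718 and 760 FPKM in APP/PS1 libraries, against 249 to 269 FPKM in wild type libraries. The tissue label reads brain, while the extraction protocol names retinas. The summed level of 10 photoreceptor genes was 0.948 to 1.72 FPKM, against 2638 to 2876 FPKM for 11 genes of neurons, astrocytes and oligodendrocytes. The pituitary was not named in the labels, and its lineage factor Pou1f1 was at most 0.0467 FPKM in any library. The deposited FPKM carry no counts, so the absolute depth of these libraries is unknown.

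No hormone gene differed between the genotypes or ages past an adjusted p of 0.05 in limma. Across all 13593 genes tested, 0.0956% were called for genotype at 9 months, 0.0441% at 6 months, 0.118% for genotype over both ages, 0.0147% for age and 0.00736% for the difference of the genotype effect between ages. The 9 tested hormone genes gave 0 calls in each of the 5 comparisons, and unadjusted limma p under 0.05 for 1, 1, 2, 3 and 1 of them in that order. Over all genes, unadjusted limma p was under 0.05 for 9.73%, 11.7%, 10.4%, 12.2% and 11.3% in that order. With 9 genes, these counts say little beside those shares. No tested hormone gene had separate APP/PS1 and wild type ranges at either age. Of all genes, 17.3% did at 9 months and 15.8% at 6 months, so 0 among 9 says nothing particular about the hormone genes. The median log2 difference of the 9 genes was 0.47 at 9 months and 0.05 at 6 months, beside 0.01 and -0.01 over all genes. Libraries of the same group differed widely in these genes. On the log2(FPKM + 0.25) scale, 8 of the 9 had a within-group SD above 0.261, the 90th percentile of all genes, and 7 had an SD of 1.24 to 2.06, against a median of 0.105 over all genes.

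**Figure D1:**
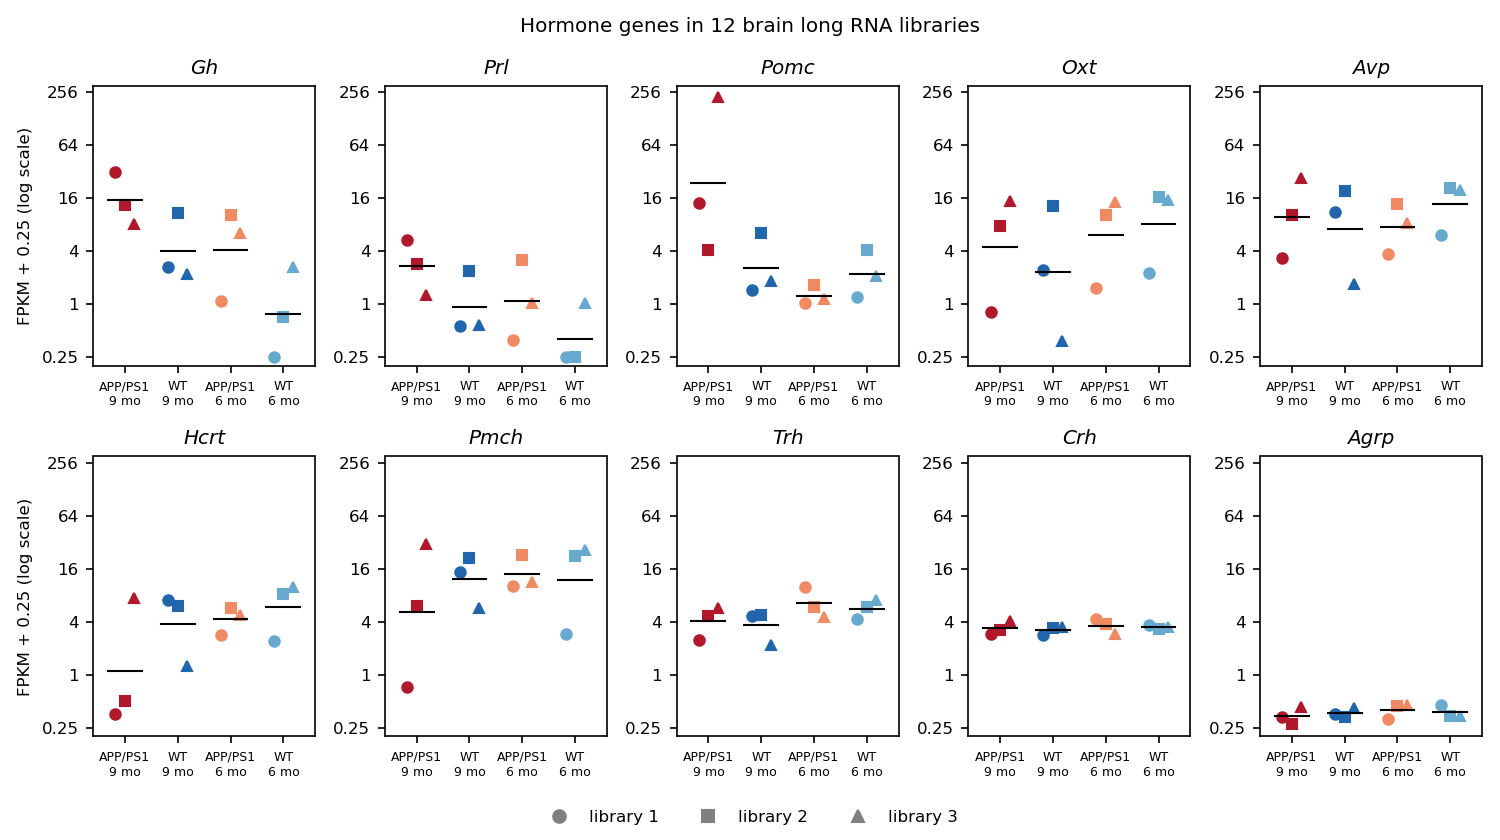
FPKM + 0.25 on a log scale for the 10 hormone genes, by group, with 1 symbol per long RNA library and a line at the mean of the 3 log values. Gh, Prl, Pomc, Oxt, Avp, Hcrt and Pmch spread widely within groups, while Crh stayed between 2.57 and 4.06 FPKM.

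Gh encodes growth hormone, which acts on liver and other tissues through the receptor Ghr. It measured 31.1, 13.2 and 7.94 FPKM in APP/PS1 libraries at 9 months, against 2.38, 10.7 and 1.94 FPKM in wild type libraries of that age. At 6 months it measured 0.828, 10.1 and 6.20 FPKM in APP/PS1 libraries, against 0.462 and 2.37 FPKM in wild type libraries 2 and 3, with wild type library 1 listed at 0. The APP/PS1 values reached higher at both ages, but a library of each genotype fell within the range of the other. On the log2(FPKM + 0.25) scale APP/PS1 minus wild type was 1.93 (SE 1.01, limma adjusted p = 0.583) at 9 months and 2.43 (SE 1.01, limma adjusted p = 0.396) at 6 months. Without wild type library 1 at 6 months, the 6-month value was 1.61. Over both ages it was 2.18 (SE 0.71, 95% interval 0.60 to 3.75, limma adjusted p = 0.352). An exact two-sided permutation test of this gene alone gave p = 0.025, of which the smallest possible was 0.005. The 9 minus 6 months difference of Gh over both genotypes was 2.11 (SE 0.71, limma adjusted p = 0.285), with an exact permutation p = 0.025.

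Prl encodes prolactin, the hormone of lactation. It measured 5.18, 2.62 and 1.03 FPKM in APP/PS1 libraries at 9 months, against 0.312, 2.12 and 0.331 FPKM in wild type libraries. In 6-month libraries it measured 0.145, 2.95 and 0.777 FPKM in APP/PS1 libraries, against 0.776 FPKM in wild type library 3, with the other wild type libraries listed at 0. Prl was high in the libraries in which Gh was high. Over the 12 libraries, log2 values of Gh and Prl correlated with r = 0.95 (Pearson) and rho = 0.96 (Spearman), and r was 0.95 without the 2 libraries farthest from the median of Gh. These libraries share their group structure, so the correlation is a description. The genes next most like Gh were Psmd1 (r 0.94), a proteasome subunit, and Arfip1 (r 0.91). After Gh, those most like Prl were Gm2897 (r 0.92) and Pafah1b1 (r 0.92). Over both ages the log2 difference of Prl, APP/PS1 minus wild type, was 1.504 (SE 0.61, limma adjusted p = 0.437), with 1.56 at 9 months and 1.45 at 6 months. The value over both ages was 0.87 with a pseudocount of 1 and 2.25 with a pseudocount of 0.05. The 6-month value was 0.67 without APP/PS1 library 2 and 2.18 without APP/PS1 library 1, both at 6 months, and 0.73 and 2.63 with those pseudocounts.

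The start region of Prl is shown because POU1F1, the factor that drives growth hormone and prolactin genes, binds sequences that contain TATNCAT. The 200 bases before the start, from RefSeq on GRCm38.p6 at chr13:27057370-27057569 on the plus strand, have TATNCAT and TATAAA in capitals on either strand.
Prl: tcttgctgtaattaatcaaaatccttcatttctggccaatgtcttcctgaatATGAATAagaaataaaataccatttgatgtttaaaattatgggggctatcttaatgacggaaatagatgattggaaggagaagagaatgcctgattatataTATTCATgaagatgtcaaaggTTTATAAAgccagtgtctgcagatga
TATNCAT was found at -148 to -142 on the minus strand and at -47 to -41 on the plus strand, and 2 overlapping TATAAA matches on opposite strands span -26 to -19. In the 250 bases before the start, searched on both strands, TATNCAT occurs in 7.92% and TATAAA in 12.4% of 32851 promoters. These matches are descriptions of the letters, and the RefSeq coordinates are not those of the deposited table. No promoter sequence was used for Gh, Crh or Agrp.

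Pomc encodes the precursor of ACTH, melanocortins and beta-endorphin. It measured 13.8, 3.93 and 228 FPKM in APP/PS1 libraries at 9 months, against 1.19, 6.14 and 1.58 FPKM in wild type libraries. The 6-month levels were 0.779, 1.40 and 0.882 FPKM in APP/PS1 libraries, against 0.960, 3.91 and 1.84 FPKM in wild type libraries. APP/PS1 library 3 at 9 months held 86.2% of the Pomc summed over the 12 libraries, 16.5 times the next library. The difference at 9 months was 3.21 (SE 1.15, 95% interval 0.67 to 5.75, limma adjusted p = 0.392), and without that library it was 1.58. At 6 months the difference was -0.82 (SE 1.15, limma adjusted p = 0.830), and -1.25 to -0.36 with 1 wild type library left out. The genotype effect was 4.03 larger at 9 than at 6 months (SE 1.63, limma adjusted p = 0.390), and 2.40 larger without that library. The 9 minus 6 months difference of Pomc over both genotypes was 2.24 (SE 0.82, limma adjusted p = 0.311), with an exact permutation p = 0.045. Without that library it was 1.43.

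Some genes of pituitary cells were high in the same library. Cga, the shared alpha subunit of the glycoprotein hormones, had the highest r with Pomc (0.96, and 0.87 without the 2 libraries farthest from the median of Pomc). Its mean was 0.513 FPKM over all libraries and 0.0885 FPKM without APP/PS1 library 3 at 9 months, so Cga passed the level of 0.5 FPKM through the library where both genes were high, and its place as most alike is no support. Next came L3mbtl2 (r 0.93) and Colec12 (r 0.90), whose r was 0.49 and 0.46 without the 2 farthest libraries, so these likenesses rest on those libraries. Cga measured 0.293, 0.157 and 5.19 FPKM in APP/PS1 libraries at 9 months, against at most 0.294 FPKM in wild type libraries of that age. It was listed at 0 in the 3 APP/PS1 libraries at 6 months, against at most 0.123 FPKM in wild type libraries. Tbx19, the corticotroph factor that activates Pomc, was 0.504 FPKM in APP/PS1 library 3 at 9 months and at most 0.0182 FPKM elsewhere. Fshb, the follicle-stimulating hormone subunit, was 0.37 FPKM there and at most 0.104 FPKM elsewhere. Tbx19 and Fshb were singled out after their values were seen. Of 15 pituitary genes in the table, 7 were highest in that library, as were 7 of 16 hormone receptors and 6 of 16 hypothalamic markers. The remaining hormone lists held fewer: 3 of 16 other neuropeptides, 2 of 12 processing genes and 1 of 12 binding and signal genes. Lists of brain regions and other tissues ran from 0 of 7 thalamic genes to 3 of 11 neuron, astrocyte and oligodendrocyte genes. The share over all genes was not taken, so the pituitary count is a description, and it is not confined to pituitary genes. Only Chga and Cga of the 15 averaged enough to be tested. Gh was 7.94 FPKM in that library, below the 31.1 FPKM of APP/PS1 library 1. The part of pituitary tissue in any of these differences was not tested.

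**Figure D2:**
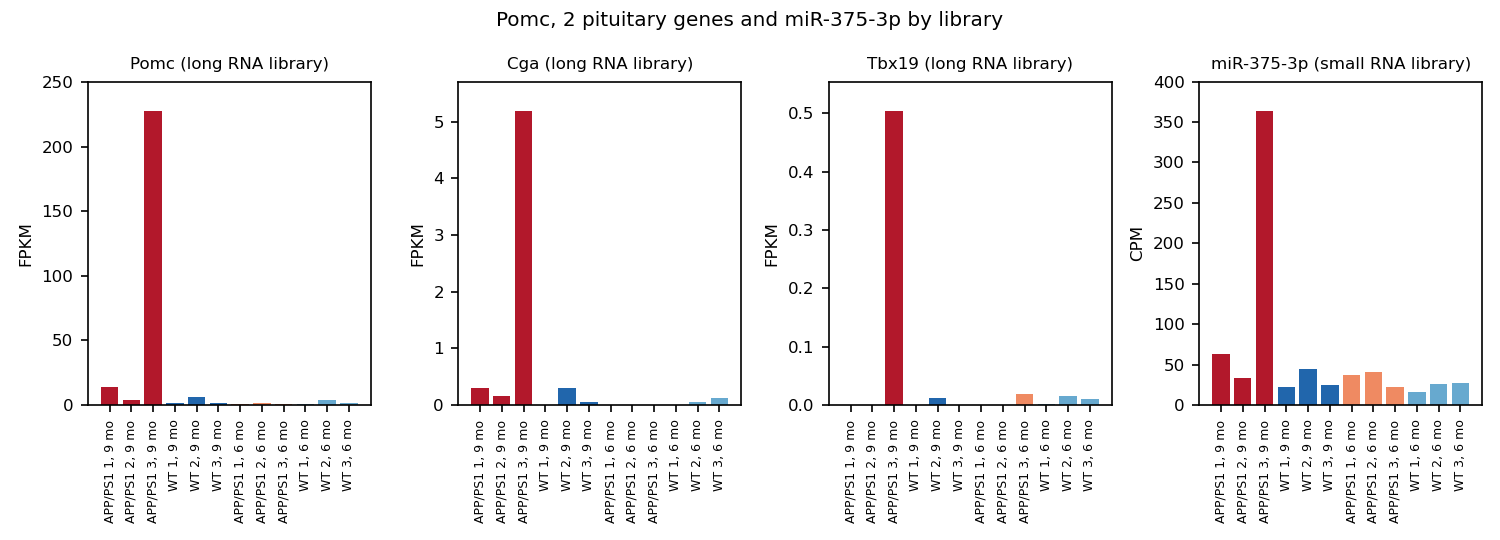
Pomc, Cga and Tbx19 in FPKM for the 12 long RNA libraries, and miR-375-3p in CPM (reads scaled to a common library total) for the 12 small RNA libraries, as bars from 0 coloured by group. APP/PS1 library 3 at 9 months holds the tallest bar in each panel, at 228, 5.19 and 0.504 FPKM and 364 CPM.

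The small RNA libraries gave a separate readout. miR-375-3p, which is abundant in pancreatic islets and the pituitary, stood at 62.8, 33.1 and 364 CPM in APP/PS1 libraries at 9 months, against 22.7, 44.4 and 25.3 CPM in wild type libraries. At 6 months it measured 36.6, 41.0 and 22.4 CPM in APP/PS1 libraries, against 16.3, 25.8 and 26.9 CPM in wild type libraries. The high value rested on 2206 reads (95% Wilson interval 349 to 379 CPM, counting error only) and belonged to the library with the same group and number as the one high in Pomc. It was 5.79 times the next library, a ratio that ranked 4 from the largest among 377 miRNAs with a mean of at least 10 CPM. Of these miRNAs, the next that was highest in that same library exceeded its runner-up by 1.22 times. The labels do not say that same-numbered long and small RNA libraries share a brain. The hairpin of the gene that gives this miRNA lies at chr1:74900658-74900721 on the minus strand (RefSeq, GRCm38.p6).
Mir375: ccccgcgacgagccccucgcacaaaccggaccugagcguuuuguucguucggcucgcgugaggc
The start region of Pomc, at chr12:3954745-3954944 on the plus strand of the same build, is given with TATAAA in capitals at -25 to -20.
Pomc: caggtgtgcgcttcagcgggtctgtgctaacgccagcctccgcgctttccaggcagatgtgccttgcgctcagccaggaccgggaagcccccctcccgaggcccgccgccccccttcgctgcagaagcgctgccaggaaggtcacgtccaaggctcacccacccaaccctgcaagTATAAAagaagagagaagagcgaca

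Oxt and Avp encode oxytocin and vasopressin, made by magnocellular neurons of the paraventricular and supraoptic nuclei. The genes are neighbours on chromosome 2, on opposite strands. The 200 bases before each start are shown because the 2 genes varied together, with CATAAA in capitals in both and GGTCA, a core sequence bound by nuclear receptors, in capitals in Oxt on either strand. Oxt lies at chr2:130575969-130576168 on the plus strand and Avp at chr2:130582589-130582788 on the minus strand (RefSeq, GRCm38.p6).
Oxt: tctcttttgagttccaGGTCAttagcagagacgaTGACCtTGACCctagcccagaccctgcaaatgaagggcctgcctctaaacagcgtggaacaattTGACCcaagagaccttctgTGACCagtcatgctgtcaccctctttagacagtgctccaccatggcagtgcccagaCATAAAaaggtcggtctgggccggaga
Avp: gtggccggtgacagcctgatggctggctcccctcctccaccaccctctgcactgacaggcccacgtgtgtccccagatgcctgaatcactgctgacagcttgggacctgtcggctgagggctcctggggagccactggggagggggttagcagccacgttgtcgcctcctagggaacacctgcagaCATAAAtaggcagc
CATAAA, searched after the windows had been read, stood at -27 to -22 in Oxt and at -14 to -9 in Avp, and 10.8% of promoters hold it. GGTCA occurred 5 times in Oxt, and 35.2% of promoters hold it at least once. It also occurred in Trh and in Pomc, there at -61 to -57 and left in small letters above. Of the 7 members with a promoter sequence, 3 hold it.

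Oxt measured 0.564, 7.39 and 14.5 FPKM in APP/PS1 libraries at 9 months, against 2.19, 12.9 and 0.131 FPKM in wild type libraries. In 6-month libraries it measured 1.27, 9.98 and 14.1 FPKM in APP/PS1 libraries, against 2.01, 16.04 and 15.0 FPKM in wild type libraries. Each group held at least 1 library with little Oxt, and the highest library exceeded the lowest 122-fold. Avp measured 3.12, 10.1 and 27.1 FPKM in APP/PS1 libraries at 9 months, against 10.8, 18.9 and 1.46 FPKM in wild type libraries. The 6-month levels were 3.43, 13.6 and 8.09 FPKM in APP/PS1 libraries, against 5.82, 20.5 and 19.7 FPKM in wild type libraries. Oxt and Avp had r = 0.92 over the 12 libraries, and 0.81 without the 2 libraries farthest from the median of Oxt. The genotype difference over both ages was 0.26 for Oxt (95% interval -1.97 to 2.496) and -0.19 for Avp (95% interval -1.68 to 1.30). Both values changed sign when single libraries were left out (-0.39 to 0.89 for Oxt and -0.71 to 0.19 for Avp).

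Hcrt and Pmch encode hypocretin and melanin-concentrating hormone, made by separate neurons of the lateral hypothalamus that act on arousal and feeding. Hcrt measured 0.107, 0.247 and 7.18 FPKM in APP/PS1 libraries at 9 months, against 6.72, 5.80 and 0.991 FPKM in wild type libraries. At 6 months it measured 2.60, 5.51 and 4.57 FPKM in APP/PS1 libraries, against 2.16, 7.98 and 9.72 FPKM in wild type libraries. The lowest and the second lowest Hcrt were APP/PS1 libraries at 9 months, but the third APP/PS1 library of that age exceeded the wild type libraries of the same age. Pmch measured 0.479, 5.82 and 29.9 FPKM in APP/PS1 libraries at 9 months, against 14.5, 20.7 and 5.53 FPKM in wild type libraries. In 6-month libraries it measured 9.80, 22.3 and 11.2 FPKM in APP/PS1 libraries, against 2.67, 21.9 and 25.8 FPKM in wild type libraries. The difference at 9 months was -1.77 for Hcrt (SE 1.06, limma adjusted p = 0.631) and -1.25 for Pmch (SE 1.19, limma adjusted p = 0.794). For Hcrt it was -3.15 without APP/PS1 library 3 and -0.96 without APP/PS1 library 1, both at 9 months. For Pmch it was -2.53 without the first of these and turned to 0.16 without the other. Hcrt and Pmch had r = 0.87, and each was among the 3 genes most like the other. The others were Galnt7 and Farp2 for Hcrt (r 0.87 each) and Abhd14b (r 0.88) and Atg2b (r 0.85) for Pmch. Without the 2 libraries farthest from the median of the hormone gene, r was 0.66 for Galnt7, 0.58 for Farp2, 0.65 for Abhd14b and 0.72 for Atg2b.

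Libraries low in these 4 peptides were mostly low in hypothalamic markers. All 4 peptides and all 8 tested markers (Hap1, Peg10, Baiap3, Glra2, Irs4, Magel2, Nkx2-1 and Otp) lay below their own median in APP/PS1 library 1 and wild type library 3 at 9 months. In APP/PS1 library 1 and wild type library 1 at 6 months, 4 peptides and 7 markers did, and in APP/PS1 library 3 at 6 months 3 peptides and 7 markers did. APP/PS1 library 2 at 9 months departed from this, with 4 peptides but 1 marker below the median, and so did wild type library 1 at 9 months, with 1 peptide and 8 markers. Galr1, a galanin receptor, was the gene most like Oxt (r 0.96), ahead of Arhgap36 (r 0.95) and Nkx2-1 (r 0.93), a factor that patterns the ventral hypothalamus. Avp was most like Ahi1 (r 0.94), Gpx3 (r 0.93) and Galr1 (r 0.93). Irs4 measured 0.413, 1.64 and 1.75 FPKM in APP/PS1 libraries at 9 months, against 0.632, 1.51 and 0.416 FPKM in wild type libraries. At 6 months Irs4 measured 0.501, 1.43 and 1.08 FPKM in APP/PS1 libraries, against 0.514, 1.75 and 1.88 FPKM in wild type libraries. The part of the dissected territory in the peptide levels was not tested.

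**Figure D3:**
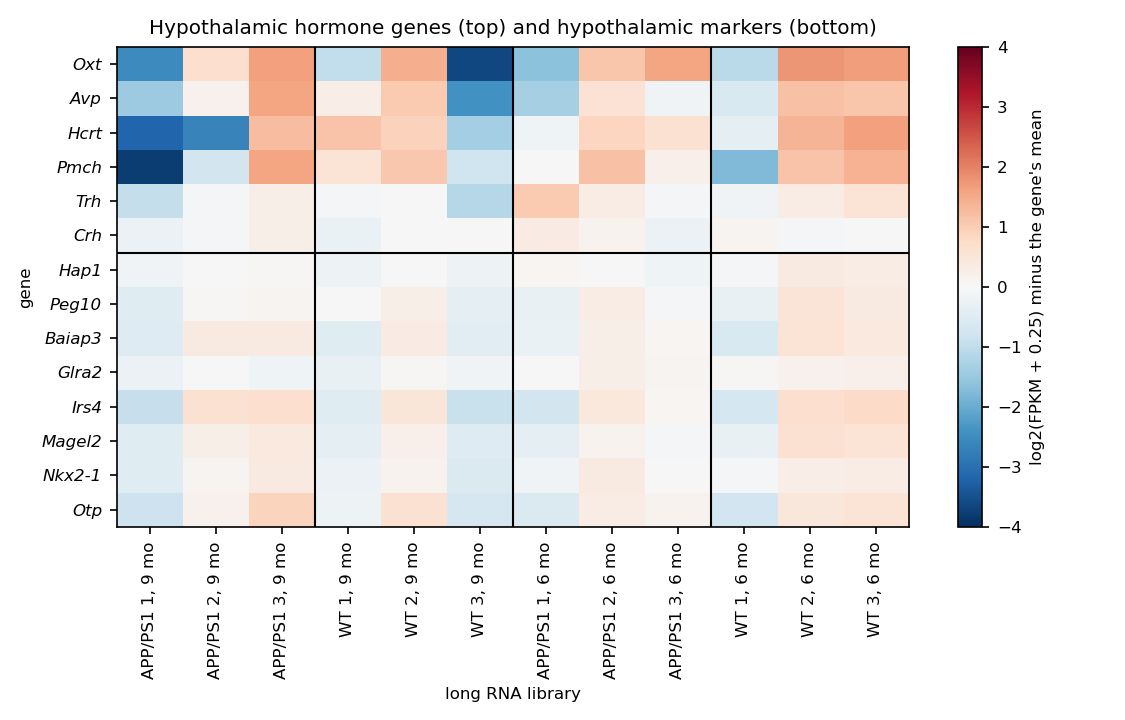
Log2(FPKM + 0.25) minus the mean of each gene over the 12 long RNA libraries, for 6 hypothalamic hormone genes above 8 hypothalamic markers, with columns in group order. Blue columns, such as wild type library 3 at 9 months with 0.131 FPKM of Oxt, run through most peptides and, more weakly, through the markers, while Crh is pale throughout.

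Choroid plexus genes, another restricted tissue, also varied between libraries. Their summed level was 77.8 to 299 FPKM in APP/PS1 libraries at 9 months, against 313 to 357 FPKM in wild type libraries, and 102 to 334 FPKM in APP/PS1 libraries at 6 months, against 6.16 to 297 FPKM in wild type libraries. miR-7a-5p and miR-7b-5p, enriched in neuroendocrine hypothalamus and pituitary, share the seed in capitals (bases 2 to 8; RefSeq, GRCm38.p6).
miR-7a-5p: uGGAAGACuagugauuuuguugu
miR-7b-5p: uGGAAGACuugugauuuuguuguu
miR-7a-5p ranged from 14480 to 27392 CPM in APP/PS1 libraries at 9 months, against 15684 to 21971 CPM in wild type libraries. At 6 months it ranged from 14049 to 22737 CPM in APP/PS1 libraries, against 19051 to 23551 CPM in wild type libraries. Its spread was far smaller than that of Oxt.

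Trh encodes thyrotropin-releasing hormone. It measured 2.26, 4.42 and 5.41 FPKM in APP/PS1 libraries at 9 months, against 4.39, 4.54 and 1.94 FPKM in wild type libraries. The 6-month levels were 9.66, 5.65 and 4.32 FPKM in APP/PS1 libraries, against 4.08, 5.66 and 6.74 FPKM in wild type libraries. The 9 minus 6 months difference of Trh on the log2 scale was -0.65 (SE 0.28, limma adjusted p = 0.377). Its genotype difference over both ages was 0.17 (95% interval -0.43 to 0.78), and -0.01 without wild type library 3 at 9 months. The genes most like it were Tacr1 (r 0.91), Sv2c (r 0.91) and Gad2 (r 0.88), the last a GABA-synthesizing enzyme.

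The highest Trh, in APP/PS1 library 1 at 6 months, stood beside high olfactory bulb genes. Of 7 such genes, listed after the data were seen, 6 were highest in that library, and their sum was 83.4 FPKM there, against 50.5 FPKM in wild type library 3 at 6 months. Omp, the olfactory marker protein, was 9.70 FPKM there and at most 1.12 FPKM elsewhere. miR-200b-3p was 7798 CPM in the small RNA library of the same group and number, and the next library had 1396 CPM. miR-429-3p was 1505 CPM there, against 261 CPM in the next library, and shares the seed in capitals with miR-200b-3p (RefSeq, GRCm38.p6).
miR-200b-3p: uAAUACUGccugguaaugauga
miR-429-3p: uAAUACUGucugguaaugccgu
The part of olfactory tissue in the Trh level was not tested.

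Crh encodes corticotropin-releasing hormone, which drives the stress axis and is also made by cortical interneurons. It measured 2.68, 2.999 and 3.79 FPKM in APP/PS1 libraries at 9 months, against 2.57, 3.10 and 3.20 FPKM in wild type libraries. At 6 months it measured 4.06, 3.49 and 2.66 FPKM in APP/PS1 libraries, against 3.42, 3.08 and 3.22 FPKM in wild type libraries. Its within-group SD of 0.21 was the smallest of the 9 tested genes, beside 2.06 for Oxt. The 95% interval of its genotype difference ran from -0.26 to 0.42 at 9 months and from -0.29 to 0.39 at 6 months. The genes most like Crh were Islr (r 0.88), Zfp688 (r 0.87) and Hdlbp (r 0.86). Agrp, the orexigenic peptide of the arcuate nucleus, was below the level needed for testing, at 0.0232 to 0.1801 FPKM in APP/PS1 libraries at 9 months, against 0.0852 to 0.174 FPKM in wild type libraries. At 6 months Agrp was 0.0627 to 0.201 FPKM in APP/PS1 libraries, against 0.0926 to 0.204 FPKM in wild type libraries.

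**Figure D4:**
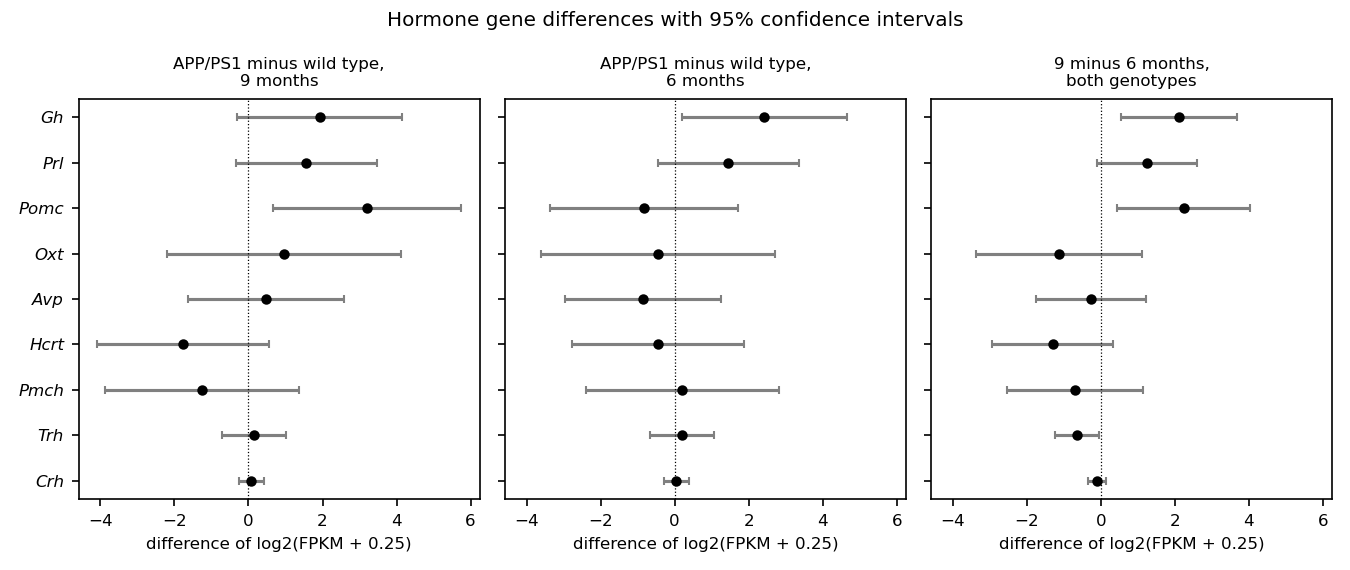
Differences of log2(FPKM + 0.25) for the 9 tested hormone genes with unadjusted 95% confidence intervals, for APP/PS1 minus wild type at 9 months and at 6 months and for 9 minus 6 months. Intervals are wide for Oxt (-2.19 to 4.13 at 9 months) and narrow for Crh (-0.26 to 0.42).

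Receptors, processing enzymes and other genes of these hormone systems were followed in 6 lists, of which 55 genes were tested. In limma 0 of the 55 passed an adjusted p of 0.05 in any of the 5 comparisons, where 0.00736% to 0.118% of all genes did, so this count says nothing particular about them. The smallest adjusted p was 0.177, for Pcsk1n, an inhibitor of a prohormone convertase, at 6 months. With 8 further lists of choroid plexus, brain region, photoreceptor and general brain markers, 104 genes were tested with 0 calls, the smallest adjusted p being 0.113. Of 16 receptors, 12 were tested, and their median difference was 0.05 at 9 months and -0.11 at 6 months. The 4 most abundant were Mchr1, the receptor of melanin-concentrating hormone, Crhr1, Ghr and Trhr2. Ghr, the growth hormone receptor, measured 3.95, 3.75 and 4.72 FPKM in APP/PS1 libraries at 9 months, against 3.12, 2.67 and 3.43 FPKM in wild type libraries. Those ranges did not overlap, and the difference was 0.40 (SE 0.11, limma adjusted p = 0.268). Of all genes, 17.3% had separate ranges at 9 months, other genes of these lists among them, so the separation is not particular to Ghr. At 6 months the Ghr ranges of the genotypes overlapped, and the difference was 0.09 (SE 0.11, limma adjusted p = 0.802). All 12 processing and granule genes were tested, led by Cpe, Pcsk1n, Scg5 and Vgf, with medians of 0.01 at 9 months and -0.08 at 6 months. Cpe, which trims prohormone fragments, lay between 648 and 699 FPKM in all libraries. The 12 binding, inactivation and signal genes, led by Lnpep, Nr3c1, Fkbp5 and Igf2, had medians of -0.01 at 9 months and 0.03 at 6 months. Of 16 other hypothalamic neuropeptides, 9 were tested, led by Sst, Penk, Npy and Pdyn, and their medians were 0.02 at 9 months and -0.15 at 6 months. The 8 tested hypothalamic markers had medians of 0.19 at 9 months and -0.16 at 6 months.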

How the data were processed

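Brain RNA of APP/PS1 and wild type mice was profiled in 36 samples of circRNA, long RNA and small RNA libraries, and the 12 long RNA and 12 small RNA libraries were used. The authors deposited FPKM per transcript for mRNA, and miRNA read counts (5082755 to 8595108 reads per library). Per the submitters' processing notes, Bowtie 0.12.2 was used. The sources used here do not name the counting tools. FPKM of 48717 transcripts were summed per gene. Genes that averaged 0.5 FPKM or more were analysed as log2(FPKM + 0.25), which understates changes of low genes, with limma 3.58.1 (trend) in R 4.3.3. The model had 4 group means and 5 contrasts, two-sided, with Benjamini-Hochberg adjustment over 13593 genes and calls at 0.05. miRNA counts were scaled to CPM and described without a test. Of 9058 genes with a median of at least 5 FPKM, 6 had a 0 in some library, so a 0 is given as listed. The commonest ratios of low values put relative depth within 1.64-fold. Only 11.7% to 19.6% of the low genes compared per library lay at that ratio, so this is a rough estimate.

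The members and lists were chosen with earlier results of these data known. Named genes were the 10 members, App, Prnp, the 4 most abundant genes of a list, and the 3 genes most like each member by Pearson r over 12 libraries. Irs4, Magel2, Otp, Pou1f1, Tbx19, Fshb and Omp fall outside this rule and were chosen after their values were seen. The rule covers no miRNA. Promoter sequences from RefSeq matched 7 of the 10 members. Alternatives were other pseudocounts, filters, scaling, weights, a robust prior, the compared groups only, a replicate block, exact permutation and leaving out each library.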

Additional observations from a re-analysis of the deposited data

Results flagged for a closer look

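miR-375-3p reached 364 CPM in APP/PS1 small RNA library 3 at 9 months and 62.8 CPM in library 1 of that group, both above the highest wild type library, at 44.4 CPM. It stands out because the small RNA tables lie outside the tests of the hormone genes. The difference was not tested.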

How the results depend on the processing

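No alternative called a hormone gene by limma. Of 949 values of the 9 tested genes under alternatives, 896 kept their direction and side of the threshold and 50 reversed. The other 3 passed 0.05 only in the exact permutation test of a single gene: Gh for genotype over both ages (0.025), Gh for age (0.025) and Pomc for age (0.045). Many values could not reverse, so the 896 does not measure robustness. Other filters, a robust prior, the replicate block, the compared groups only and permutation leave the log2 difference unchanged. So does leaving out a library of the other age from a genotype comparison at a single age. In such a comparison the smallest possible exact permutation p was 0.1, so it could not pass 0.05. Of the reversals, 46 came from leaving out a library and 4 from other settings: 0.079 for the Gh difference of the genotype effect between ages with a pseudocount of 1, -0.74 for that of Prl with a pseudocount of 0.05, -0.015 for that of Crh with quantile normalization, and -0.011 for Pmch at 6 months with library weights. Prl could not be fitted at a mean of at least 2 FPKM.

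When each of the 12 libraries was left out in turn, the log2 difference of the genes below changed sign for 1 to 5 of them. For genotype at 9 months, it ran from -2.53 to 0.16 for Pmch, -0.56 to 1.24 for Avp, -0.22 to 0.49 for Trh, -0.0502 to 0.18 for Crh and -0.33 to 2.23 for Oxt. For genotype at 6 months, it ran from -1.38 to 0.56 for Oxt, -0.12 to 0.44 for Trh, -0.0808 to 0.20 for Crh and -0.81 to 0.77 for Pmch. For genotype over both ages, it ran from -0.71 to 0.19 for Avp, -1.16 to 0.18 for Pmch, -0.39 to 0.89 for Oxt, -0.000975 to 0.14 for Crh and -0.013 to 0.34 for Trh. For age, it ran from -0.64 to 0.24 for Avp and -1.34 to 0.00409 for Pmch. For the difference of the genotype effect between ages, it ran from -0.62 to 0.89 for Prl, -0.41 to 0.30 for Trh, -0.12 to 0.16 for Crh and -1.47 to 0.32 for Gh. The cause was not tested.

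Genes called numbered 13 for genotype at 9 months, 6 at 6 months, 16 over both ages, 2 for age and 1 for the difference between ages. Library weights gave 20 at 9 months and 2 for the difference. A pseudocount of 0.05 gave 10 over both ages. A mean of at least 2 FPKM gave 9 over both ages and 3 at 6 months, with fewer genes tested, and no filter gave 1 for age. Leaving out a library gave 5 (without APP/PS1 library 3 at 9 months) to 14 at 9 months, 4 to 17 (without APP/PS1 library 3 at 6 months) at 6 months, 8 (without wild type library 1 at 9 months) to 16 over both ages, 1 to 19 (without APP/PS1 library 3 at 6 months) for age and 0 to 4 for the difference.

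The replicate block gave 1 call for age and changed no other count by over 1.5 times. Deviations of same-numbered libraries correlated between -0.12 and 0.13 over 12 pairs, with 1 pair over 0.1, so the numbers were not taken as pairs.

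Unknown depth limits what the low FPKM of Prl, Cga and Agrp can show. The within-group SD of 7 of the genes was 1.24 to 2.06 on the log2 scale.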
